A study of Mus musculus with 12 samples.

Results

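The genes described here are 42 that skeletal muscle fibers use to build the sarcomere, to release and take back calcium, and to feed contraction with energy. They were listed by name, with earlier results of these data known, and all 42 had a row among the 16411 genes of the count table. They comprise 10 thick filament genes, 11 thin filament genes, 9 genes of the Z-disc, titin and desmin, 9 calcium genes and 3 energy genes. RNA was measured by poly A sequencing in 12 samples, 6 of them mammary tumors and 6 benign mammary tissue, numbered 1 to 6 in each group. All 12 samples came from female mice on an FVB background carrying the MMTV-Neu-NDL-YD5 transgene, in which the MMTV promoter drives an activated form of HER2 (neu) in mammary epithelium. The benign tissue, which had no visible tumor, therefore came from transgenic mice too, and tumors and benign tissue were taken from different mice. The labels give no age and no treatment.

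A skeletal muscle fiber contracts when myosin heads on the thick filament pull on the actin of the thin filament, within a repeating unit, the sarcomere, whose ends are the Z-discs. Calcium leaves the sarcoplasmic reticulum through the ryanodine receptor, binds troponin C and frees the actin sites that tropomyosin covers, and a calcium pump then returns it to the store. Fast and slow fibers use different genes for many of these parts, so that fiber type can be read from pairs of isoforms such as fast Tnni2 and slow Tnni1. The mammary fat pad lies under the skin, close to thin sheets of muscle, and several of the 42 genes are also used outside skeletal muscle, among them Tpm1, Tpm2 and Tpm3, Des and Ldb3, which smooth muscle, myoepithelium or other cells make.

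The benign samples did not resemble each other for these genes. Total counts ranged from 5240853 to 8588567 per sample. The 42 genes held 7.05% of all counts in benign 3, 4.08% in benign 4 and 9.90% in benign 6, against 0.0908% in benign 1, 0.0931% in benign 2 and 0.137% in benign 5. Benign 3, 4 and 6 thus stand apart from the other 3, and results are given below with and without them. In the tumors the share ran from 0.0449% in tumor 1 to 0.101% in tumor 5. Most of what was left in the muscle-poor samples came from the 5 genes that other cells make. Without these, the remaining 37 genes gave 510312, 239338 and 624788 counts in benign 3, 4 and 6, 359 and 630 in benign 1 and 2, and 3798 in benign 5. The same 37 genes gave 102, 130, 185, 299, 1675 and 112 counts in tumors 1 to 6, so that tumor 5 held more than benign 1 or 2. Mb alone made up 37.3%, 57.7%, 55.7%, 38.8% and 25.9% of these counts in tumors 1, 2, 3, 4 and 6. It made up 1.55% in tumor 5, the only tumor with counts of Myh4. Of the 42 genes, 7 were at 0 in benign 1 and 7 in benign 2, at most 1 in each of the other benign samples, and between 5 (tumor 5) and 25 (tumor 1) in the tumors. Because these are bulk samples, fewer muscle fibers and less RNA per fiber cannot be told apart.

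**Figure D1:**
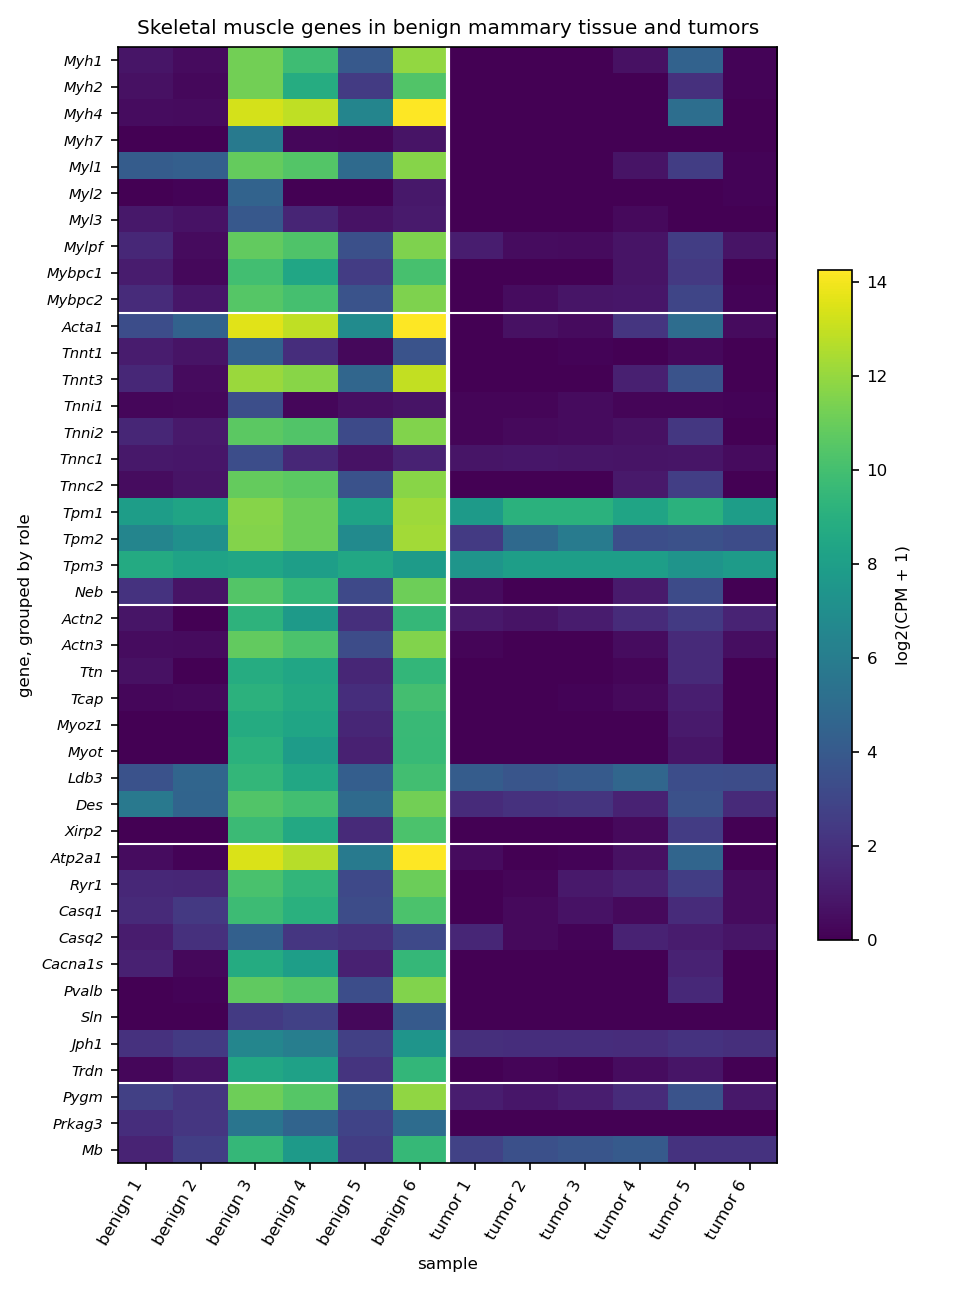
Level of each of the 42 genes (rows, grouped by role: thick filament, thin filament, Z-disc with titin and desmin, calcium, energy) in each of the 12 samples (columns), as log2(CPM + 1) after TMM scaling. Benign 3, 4 and 6 are bright for nearly every gene, benign 5 and tumor 5 carry a faint copy of that column, and Tpm1, Tpm3 and Ldb3 are visible in every sample.

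The start regions of 5 of the genes are shown because the results turn on them: Myh4 leads the fast genes, Acta1 is the actin of all skeletal fibers, Myh7 marks the slow fiber, and Myl1 and Prkag3 were measured in benign tissue that had almost no Myh4. Each is the window from 250 bases before to 50 after an annotated start, from RefSeq on GRCm38.p6 (the labels name mm10). It is written along the strand of the gene. Capitals mark matches on either strand to CAGCTG, an E-box of the kind bound by the MyoD family, TATAAA, the MEF2 motif, the CArG box bound by serum response factor, and CATTCC, the M-CAT motif. The windows lie at chr11:67237562-67237861 on the plus strand for Myh4, and on the minus strand at chr8:123894726-123895025 for Acta1, chr14:54994577-54994876 for Myh7, chr1:66945007-66945306 for Myl1 and chr1:74748906-74749205 for Prkag3.
Myh4: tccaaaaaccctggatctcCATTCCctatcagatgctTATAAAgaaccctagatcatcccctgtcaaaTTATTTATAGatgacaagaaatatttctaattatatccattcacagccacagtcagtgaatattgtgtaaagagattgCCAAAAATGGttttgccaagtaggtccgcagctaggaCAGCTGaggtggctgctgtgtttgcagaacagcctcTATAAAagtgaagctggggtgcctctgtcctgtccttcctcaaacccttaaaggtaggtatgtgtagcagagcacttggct
Acta1: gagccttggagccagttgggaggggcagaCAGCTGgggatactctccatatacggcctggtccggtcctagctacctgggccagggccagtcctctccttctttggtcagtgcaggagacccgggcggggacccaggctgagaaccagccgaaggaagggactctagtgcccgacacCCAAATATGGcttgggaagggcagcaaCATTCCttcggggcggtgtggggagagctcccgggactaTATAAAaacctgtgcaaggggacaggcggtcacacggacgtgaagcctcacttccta
Myh7: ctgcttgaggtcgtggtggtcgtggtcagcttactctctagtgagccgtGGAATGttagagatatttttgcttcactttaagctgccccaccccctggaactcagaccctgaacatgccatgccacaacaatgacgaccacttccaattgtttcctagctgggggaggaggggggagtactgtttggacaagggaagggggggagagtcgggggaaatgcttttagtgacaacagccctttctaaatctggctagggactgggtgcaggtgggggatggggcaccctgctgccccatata
Myl1: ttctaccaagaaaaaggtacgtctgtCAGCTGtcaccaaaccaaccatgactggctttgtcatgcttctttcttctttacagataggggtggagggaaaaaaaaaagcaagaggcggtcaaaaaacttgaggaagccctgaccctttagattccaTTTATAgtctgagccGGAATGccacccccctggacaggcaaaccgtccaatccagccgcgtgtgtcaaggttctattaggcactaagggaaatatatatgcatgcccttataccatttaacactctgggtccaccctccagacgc
Prkag3: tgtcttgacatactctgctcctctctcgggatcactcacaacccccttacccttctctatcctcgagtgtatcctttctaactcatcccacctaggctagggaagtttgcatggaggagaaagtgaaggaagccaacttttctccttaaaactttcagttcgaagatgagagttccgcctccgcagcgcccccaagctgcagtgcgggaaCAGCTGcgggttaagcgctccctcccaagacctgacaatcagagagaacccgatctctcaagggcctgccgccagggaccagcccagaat

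RefSeq start windows were at hand for 32 of the 42 genes, 40 windows in all. CAGCTG was in 19 of these 40 windows (47.5%) and in 16.3% of 32851 mouse windows of the same length. The MEF2 motif was in 6 windows (15.0%, against 3.19% of all), the CArG box in 5 (12.5%, against 1.63%), CATTCC in 11 (27.5%, against 14.7%) and TATAAA in 7 (17.5%, against 13.6%). Myh4 and Acta1 each carried the E-box, a TATAAA match, the M-CAT motif and a CArG box. The Myh7 window shown held only CATTCC and the Prkag3 window only CAGCTG. RefSeq gives Myh7 another start, and its window (chr14:54994500-54994799) held none of these motifs. In Myh4 the MEF2 match overlaps a TATAAA match on the other strand. These are letter matches, and binding was not measured.

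Among the thick filament genes, Myh4, the heavy chain of the fastest fibers (type 2B), set the pattern. Its level in benign 1 to 6 was 0.370, 0.358, 10183, 7545, 87.3 and 19629.5 CPM (a gene's counts scaled to the size of the library after TMM), with 2 and 3 counts behind the values of benign 1 and 2. It was at 0 in 5 tumors and at 34.4 CPM in tumor 5. Benign 6 was the highest and benign 1 and 2 lay inside the range of the tumors, so the groups overlap. Myh1 (type 2X) followed the same order, with 0.741, 0.358, 2352, 909.8, 14.6 and 3919 CPM in benign tissue and 0.540, 21.0 and 0.110 CPM in tumors 4, 5 and 6. Myh2 (type 2A) did not: at 0.556, 0.239, 2434, 458.9, 4.49 and 1348 CPM it was highest in benign 3. Myh7, the heavy chain of slow fibers and of the heart, was at 56.1 CPM in benign 3 and at no more than 0.710 CPM in any other sample. The regulatory light chain of fast fibers, Mylpf, stood at 1802, 1282 and 2933 CPM in benign 3, 4 and 6, and between 0.358 and 9.99 CPM in the other benign samples.

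The counts of the 4 heavy chains give a mix of heavy chain RNA for each sample with enough reads. Fibers themselves were not counted. Myh4 made up 67.8% of them in benign 3, 84.6% in benign 4, 81.9% in benign 5 and 78.8% in benign 6. Myh2 made up 16.2% in benign 3 and between 4.22% and 5.41% in the other 3. Benign 3 therefore held about the same share of Myh1 as benign 6 (both 15.7%) but more Myh2 and less Myh4. Reads of these near-identical genes, which lie side by side, were divided by the authors' software, so that the split between Myh1, Myh2 and Myh4 is less certain than their sum. With 1 sample behind each mix, the differences describe these samples, and the intervals given for shares are exact binomial 95% intervals that cover counting error only.

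**Figure D2:**
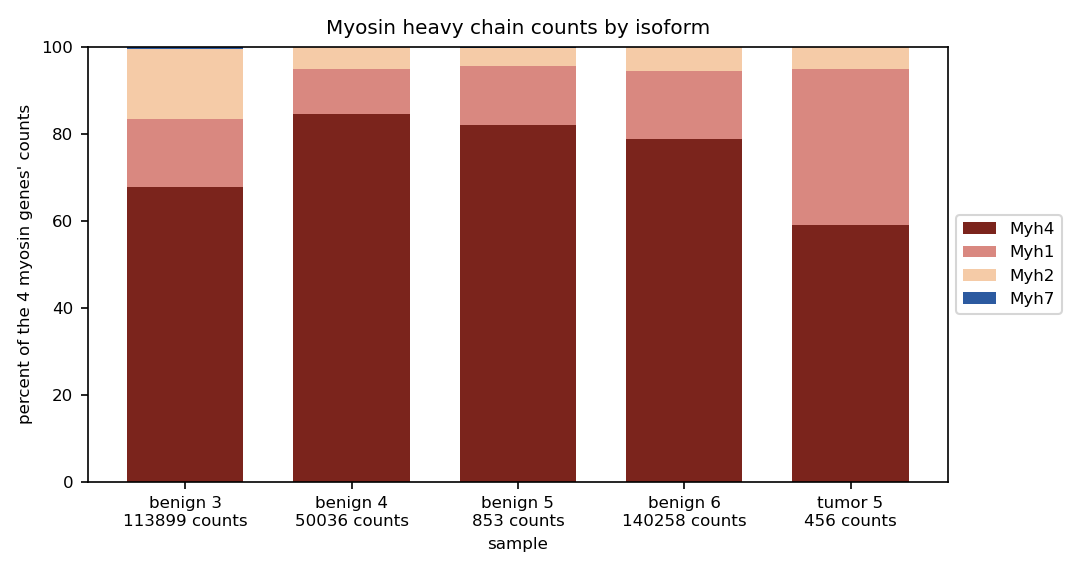
Share of each of 4 myosin heavy chain genes in their summed counts (percent, bars stacked to 100) for the 5 samples with at least 20 such counts. Myh4 is the largest part in all 5, the Myh2 part is widest in benign 3 (16.2%), and the Myh1 part is widest in tumor 5 (36.0%).

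Acta1 and the fast troponins of the thin filament varied over the same range. Acta1, skeletal muscle actin, was at 9.45, 21.0, 12763, 7679, 114.9 and 19329.5 CPM in benign 1 to 6. In the tumors it was at 0, 0.550, 0.361, 3.51, 32.9 and 0.329 CPM. Tumor 5 thus lay above benign 1 and 2. The fast troponins Tnnt3, Tnni2 and Tnnc2, which tie calcium to the movement of tropomyosin, were highest in benign 6, at 7955, 2969 and 3421 CPM. In benign 1 and 2 none of the 3 exceeded 2.04 CPM. Neb, the nebulin that spans the thin filament, had 2183 CPM in benign 6 and 0.716 CPM in benign 2. Compared per kilobase of exon, which allows genes to be set against each other, Acta1 led all 42 genes in benign 6 with 12584 CPM per kb, ahead of Atp2a1 (5509), Tnnt3 (5025), Tnnc2 (4276) and Myh4 (3263). Whether the deposited counts were adjusted for transcript length is not stated, which limits comparisons between genes.

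The Z-disc genes split the samples sharply, though Ldb3 and Actn2 had counts in every tumor. Ldb3 was at 11.3, 24.4 and 18.0 CPM in benign 1, 2 and 5 and between 8.89 and 24.7 CPM in the tumors. Actn2 was at 0 in benign 2 and between 0.688 and 4.35 CPM in the tumors. Myoz1 and Myot, which bind alpha-actinin and filamin at the Z-disc, were at 0 in benign 1 and 2 and in every tumor except tumor 5, where 8 and 6 counts were found. Their levels in benign 3, 4 and 6 were 440.3, 337.6 and 807.7 CPM for Myoz1 and 550.6, 233.7 and 771.6 CPM for Myot. Xirp2, an actin-binding protein of muscle, was at 0 in benign 1 and 2 and in 4 tumors, at 2.25 CPM in benign 5 and at 4.73 CPM in tumor 5. Actn3, the alpha-actinin of fast fibers, and Ttn, the giant spring of the sarcomere, were at no more than 0.556 CPM in benign 1 and 2. Des, the intermediate filament of all muscle types, was at 52.8, 23.3, 1315, 973.2, 29.3 and 2413 CPM in benign 1 to 6 and between 1.62 and 10.7 CPM in the tumors. Every tumor was below every benign sample for Des, with tumor 5 the nearest.

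Calcium handling was dominated by Atp2a1, the calcium pump of fast fibers, at 0.370, 0.119, 11050, 6884, 56.4 and 19155.8 CPM in benign 1 to 6. Tumor 5 had 23.7 CPM (185 counts) and the other tumors between 0 and 0.540 CPM. Ryr1, the release channel, and Cacna1s, the voltage sensor that opens it, reached 2144 and 726.2 CPM in benign 6. Pvalb, a calcium buffer of fast fibers, was at 1753, 1411 and 2989 CPM in benign 3, 4 and 6, at 9.24 CPM in benign 5 and 2.17 CPM in tumor 5, and at no more than 0.119 CPM elsewhere. Sln, the small inhibitor of the calcium pump, stayed low even in the muscle-rich samples, at 4.35, 5.88 and 15.4 CPM, and was at 0 in all 6 tumors. Of the energy genes, Pygm, the muscle glycogen phosphorylase, ran from 3.58 CPM in benign 2 to 3835 CPM in benign 6. Mb, the oxygen carrier myoglobin, was at 710.5 and 740.7 CPM in benign 3 and 6 but at 219.5 CPM in benign 4.

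Slow fiber genes were found mainly in benign 3. Counts in benign 3, 4 and 6 were 425, 1 and 4 for Myh7, 171, 0 and 5 for the slow light chain Myl2, and 108, 10 and 6 for the slow light chain Myl3. They were 74, 1 and 4 for the slow troponin Tnni1, 71, 11 and 9 for Tnnc1 and 165, 15 and 65 for Tnnt1. Benign 6 had more fast fiber RNA than benign 3 yet fewer counts of each of these 6 genes. Of the 8 slow genes, 7 were highest in benign 3, while 13 of the 15 fast genes were highest in benign 6.

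As a share of each slow and fast pair, the slow isoform remained small in all 3 muscle-rich samples. Tnni1 made up 0.598% (0.470% to 0.750%) of Tnni1 and Tnni2 in benign 3, 0.0135% (0.000341% to 0.0749%) in benign 4 and 0.0239% (0.00652% to 0.0612%) in benign 6. Tnnt1 made up 0.484%, 0.0784% and 0.145% of its pair with Tnnt3, and Myl3 0.755%, 0.129% and 0.0327% of its pair with Myl1. Myl2 gave 1.24% (1.06% to 1.43%) of its pair with Mylpf in benign 3, and 0 of 7195 counts in benign 4, which allows a share of up to 0.0513%. For each of these pairs the interval of benign 3 lies above those of benign 4 and benign 6. Casq2, the calsequestrin of slow fibers and heart, made up 2.20% of its pair with Casq1 in benign 3, 0.699% in benign 4 and 0.660% in benign 6. Mybpc1, the slow form of myosin-binding protein C, did not follow the others: it made up 40.5%, 24.2% and 27.3% of its pair with fast Mybpc2, and its level reached 984.1, 343 and 1110 CPM. Some slow shares were higher in muscle-poor samples. In benign 5 Casq2 made up 25.3% (16.9% to 35.2%), Tnni1 5.63% (1.56% to 13.8%) and Tnnc1 5.38% (1.77% to 12.1%), from 24, 4 and 5 slow counts. Tnnt1 and Myl3 were also above benign 3 there, with overlapping intervals, and Mybpc1, Myl2 and Myh7 were below. Casq2 in benign 2 (40.7%) and Myl3 in benign 1 and 2 (5.21% and 3.05%) were above benign 3 too. Heart markers were checked because the heart shares several slow genes. Myh6 had 80 counts in benign 3 and 4 in benign 6. Actc1, the cardiac actin, had 21 counts in both, against 1, 1, 4 and 1 in benign 1, 2, 4 and 5. Tnni3, Tnnt2 and Ryr2 had 14, 3 and 10 counts in benign 3, below the highest count among the other benign samples.

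**Figure D3:**
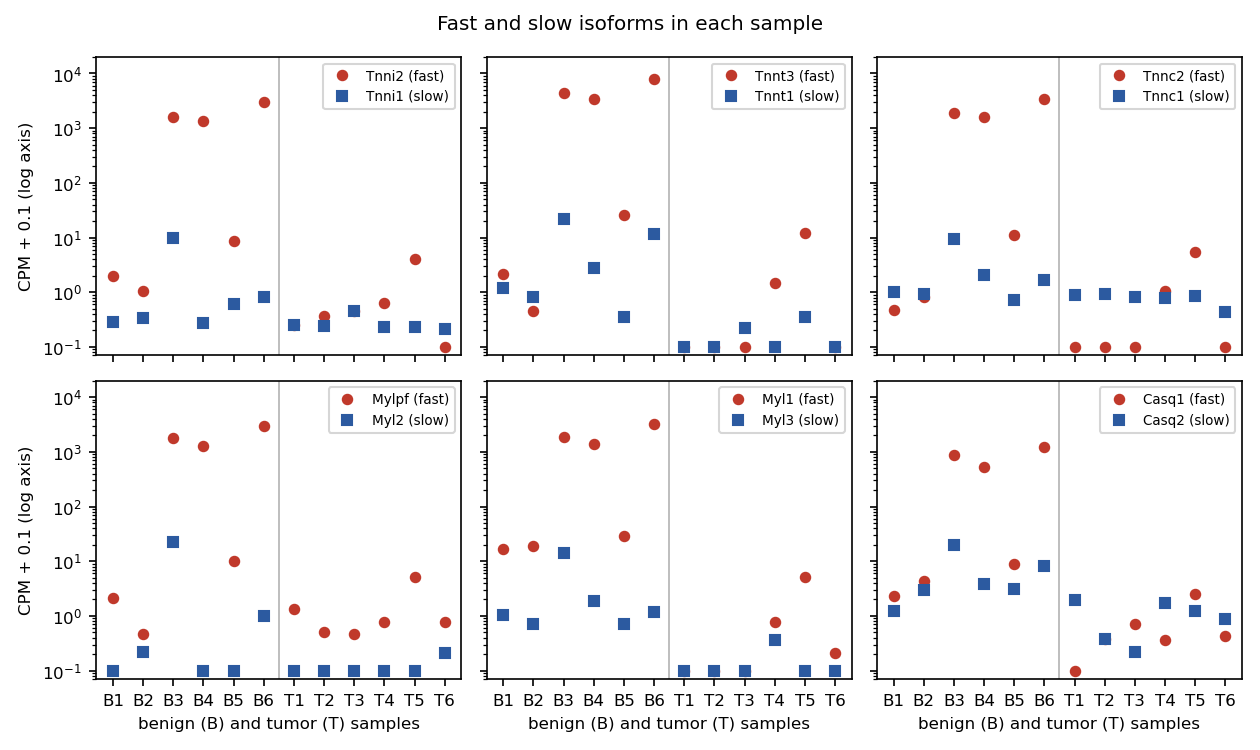
CPM + 0.1 (log axis) of 6 fast genes (circles) and their slow counterparts (squares) in benign samples B1 to B6 and tumors T1 to T6, with samples at the bottom value of 0.1 having no counts. The fast genes rise by orders of magnitude in benign 3, 4 and 6, while the slow genes are highest in benign 3 and stay far below their fast partners there.

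Benign 1 and 2, which had almost no Myh4, still had counts of a few members. Acta1 had 51 and 176 counts, Myl1, the fast essential light chain, 91 and 159, Casq1 12 and 35, and Prkag3, a regulatory subunit of AMP-activated kinase, 14 and 31. In the same samples Mylpf had 11 and 3 counts, Tnnt3 11 and 3, and Atp2a1 2 and 1. There were 53.0 Myl1 counts for each Mylpf count in benign 2 and 8.27 in benign 1, against 1.04 to 1.11 in benign 3, 4 and 6. Acta1 outnumbered Myh4 by 25.5 and 58.7 to 1 in benign 1 and 2, and the ratio was between 0.985 and 1.32 in the other benign samples. The proportions in benign 1 and 2 therefore differed from those of the muscle-rich samples. Benign 5 lay between, with 2.91 Myl1 counts for each Mylpf count. Of the 25 genes with at least 20 counts in benign 5, 12 had a share whose interval overlapped the range of benign 3, 4 and 6, 6 were above and 7 below. Prkag3 was at 2.59, 3.70, 46.3, 23.5, 6.37 and 32.0 CPM in benign 1 to 6, and no count of it was found in any tumor, tumor 5 included. Myoepithelial and smooth muscle genes were at high levels in these samples (their summed level was between 1122 and 2179 CPM in benign tissue and between 173.7 and 391.9 CPM in tumors). Acta2, the smooth muscle actin whose sequence is close to Acta1, had 2437 and 6503 counts in benign 1 and 2, and its part in the Acta1 counts was not tested.

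A trace of muscle RNA was present in tumor 5. It had the highest level among the tumors for 30 of the 42 genes. Its counts were 269 for Myh4, 164 for Myh1, 257 for Acta1, 185 for Atp2a1, 92 for Tnnt3 and 89 for Pygm. Apart from Acta1 in tumor 4 (26 counts) and Pygm (6 to 18), no other tumor had more than 10 counts of any of these 6 genes. Slow Myh7 had 0 of 456 heavy chain counts, which allows a share of up to 0.806%. Of the 19 genes with at least 20 counts in tumor 5, 11 had a share whose interval overlapped the range of benign 3, 4 and 6, 6 were above and 2 below. The other 18 genes had too few counts for an overlap to say much. Over all 37 genes, 8 were above and 4 below. Myh4 held 16.1% of the summed counts, against a mean of 16.8% in benign 3, 4 and 6. Myh1 held 9.79% (8.41% to 11.3%) against 3.05%, so that its part among the heavy chains was 36.0% (31.6% to 40.6%), above the 10.2% to 15.7% of the benign samples. Neb, Actn2, Xirp2, Pygm, Casq2, Jph1 and Tnnc1 were the others above, and Acta1, Actn3, Atp2a1 and Pvalb were below. Jph1, Casq2 and Tnnc1 had counts in every tumor. In tumors 1 to 6 Jph1 had 18, 19, 22, 19, 26 and 25 counts. Casq2 had 12, 2, 1, 12, 9 and 7, and Tnnc1 5, 6, 6, 5, 6 and 3. The shares of Jph1, Casq2 and Tnnc1 therefore say little about the muscle RNA of tumor 5. Actn2 had 34 counts in tumor 5 and from 5 to 18 in the other tumors. Acta1 held 15.3% against 18.1%, and Atp2a1 11.0% against 16.6%. Tumor 5 also had 54 counts of Ucp1, the uncoupling protein of brown fat, while the other tumors had 0. In benign 1 to 6 Ucp1 had 56, 0, 311, 8052, 27 and 1225 counts. The 7 brown fat genes summed to 243.8, 3155 and 926.2 CPM in benign 3, 4 and 6, against 156.7, 49.2 and 42.1 CPM in benign 1, 2 and 5. This sum was thus also highest in the 3 muscle-rich samples, with benign 4 and not benign 6 at the top. Ucp1, Ppargc1a, Cox7a1, Cox8b and Elovl3 were each higher in those 3 samples than in benign 1, 2 and 5. Cidea was not, at 85.6 CPM in benign 1 and 47.4 CPM in benign 3. Zic1 had 16 counts in benign 5 and 0 in benign 3, 4 and 6. Cox7a1 and Cox8b gave 52.5 and 87.9 CPM of the 243.8 CPM in benign 3. Whether these counts came from brown fat or from muscle was not tested. The part of brown fat in the muscle values was not tested either.

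**Figure D4:**
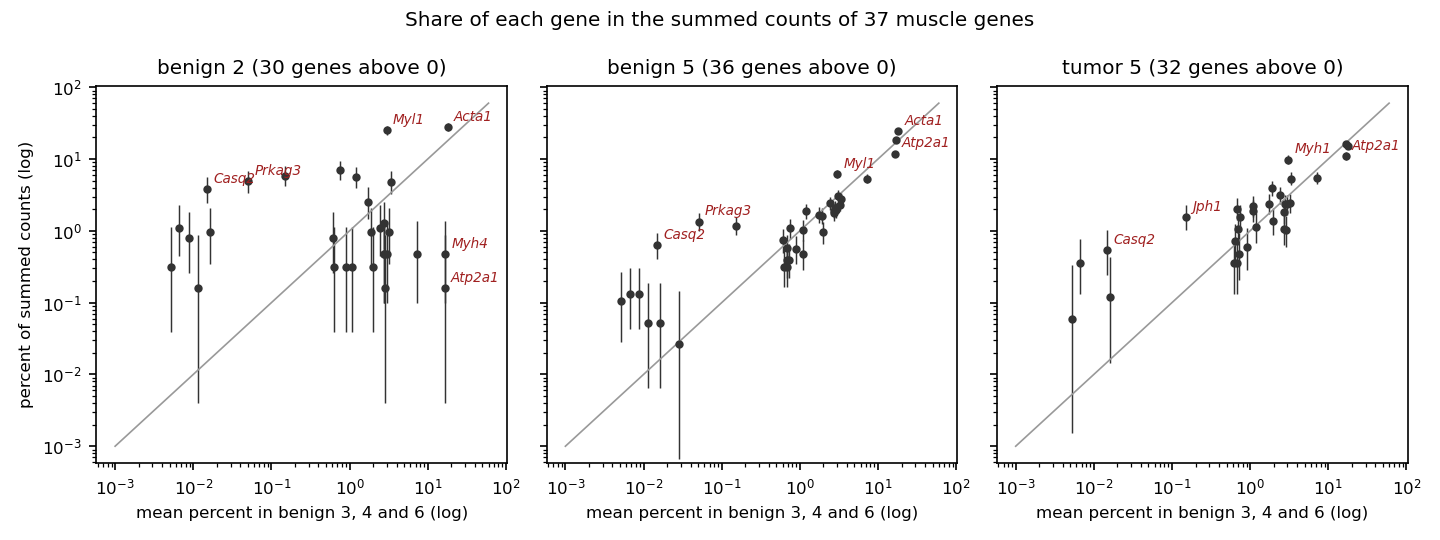
Share of each gene in the summed counts of 37 muscle genes (percent, log axes) in benign 2, benign 5 and tumor 5, against its mean share in benign 3, 4 and 6, with exact 95% binomial intervals as bars, the line marking equal shares and genes at 0 left out. Myh4 lies near the line in tumor 5 and benign 5, while Myh1 in tumor 5 and Myl1 in benign 5 lie above it, and in benign 2 Myl1 and Prkag3 lie far above it and Myh4 and Atp2a1 far below.

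The other 5 tumors held little. Tumor 4 came next, with 299 counts of the 37 genes, among them 116 of Mb, 26 of Acta1 and 10 of Tnnt3. Mb was higher in tumors 1 to 4 (5.92, 10.3, 12.4 and 15.7 CPM) than in benign 1, 2 and 5 (1.67, 5.25 and 5.12 CPM), and lower in tumors 5 and 6 (3.32 and 3.18 CPM) than in benign 2 and 5. Jph1, which holds the calcium store close to the membrane, lay between 2.56 and 3.32 CPM in the tumors, highest in tumor 5. Tpm1 and Tpm3, tropomyosins of many cell types, stayed between 216.8 and 549.1 CPM and between 167.0 and 253.8 CPM in the tumors.

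The difference between the groups was tested across 13191 genes with the quasi-likelihood test of edgeR, at an adjusted p of 0.1. All 21 members that passed the filter on low counts were lower in tumors, where 34.8% of all tested genes were called lower and 28.2% higher. The other 21 had too few libraries with counts to be tested. A gene that tumors lack could pass only through counts in benign tissue, so these 21 do not stand for the 42. The median log2 fold change of the 21 was -8.75 (-8.70 with Prkag3, which was at 0 in every tumor, set to its bound), and that of all tested genes was -0.06. Acta1 was lower by a log2 fold change of -10.04 (SE 2.33; edgeR, adjusted p = 0.00259), Myl1 of -10.12 (SE 1.87; edgeR, adjusted p = 0.00051) and Des of -7.67 (SE 1.33; edgeR, adjusted p = 0.000297). The smallest differences were those of Tpm3 (-0.54), Tpm1 (-2.16) and Casq2 (-2.72). By role, 3 of 10 thick filament genes, 7 of 11 thin filament genes, 3 of 9 Z-disc genes, 5 of 9 calcium genes and 3 of 3 energy genes were tested, and all of these were called lower. The test covered 7 of 15 fast genes and 1 of 8 slow genes, Casq2.

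For the members that could not be fitted, the exact two-sided permutation test of 6 tumors against 6 benign samples gave unadjusted p-values from 0.00216, the smallest it can give, to 0.182, with 12 of 21 below 0.05. It was not run over all genes, so no share over all genes can be set beside these 12. It compares means, which rest largely on benign 3, 4 and 6, the samples set apart by these same genes. Myh4 gave an exact p of 0.0173, Atp2a1 0.0346, Myh1 0.0649 and Myh7 0.0606. No count was found in any tumor for Myh7, Sln and Prkag3. Against a floor of 3 counts per library, benign tissue was at least 23.0-fold higher for Myh7, at least 10.4-fold higher for Sln and at least 46.1-fold higher for Prkag3, and these means lean on single samples. Without benign 6 the bound for Sln was 5.06-fold, without benign 3 that for Prkag3 was 32.9-fold, and without benign 3 the mean of Myh7 was 0.203 CPM, under the floor. Every tumor was below every benign sample for 5 of the 42 genes (Myl1, Myl3, Tpm2, Des and Prkag3). Myl3 was not among the tested genes. Of the 21 tested members 4 were so placed, a share near the 21.2% of all tested genes.

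Most of this difference rested on benign 3, 4 and 6. They were set apart by their levels of these same genes, so a smaller difference without them was fixed in advance. The p-values of the fit without them are descriptive only. With benign 3, 4 and 6 left out, 7 of the 21 tested genes were called lower and 0 higher, where 28.7% of 13604 genes were lower. The 7 were Prkag3 (fitted at -7.99, a size that depends on the prior count), Myl1 (-4.43), Des (-3.11), Casq1 (-2.90), Tpm2 (-2.44), Tpm3 (-0.70) and Jph1 (-0.63), and the median over the 21 tested was -1.53. Acta1 stood at -2.92 (SE 1.38; edgeR, adjusted p = 0.109). Tpm1, Actn2 and Mb changed sign, at 0.53, 0.70 and 1.09, and none of the 3 passed the threshold. With tumor 5 left out as well, 16 members could be tested, of which 11 were lower and 1, Mb, was higher (1.24; edgeR, adjusted p = 0.0948), where 30.8% of all genes were lower and 27.7% higher. Single samples moved the size but ended none of the 21 calls: without tumor 5 the log2 fold changes of Myl1 and Acta1 were -12.56 and -12.69, and without benign 6 they were -9.40 and -9.35.

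**Figure D5:**
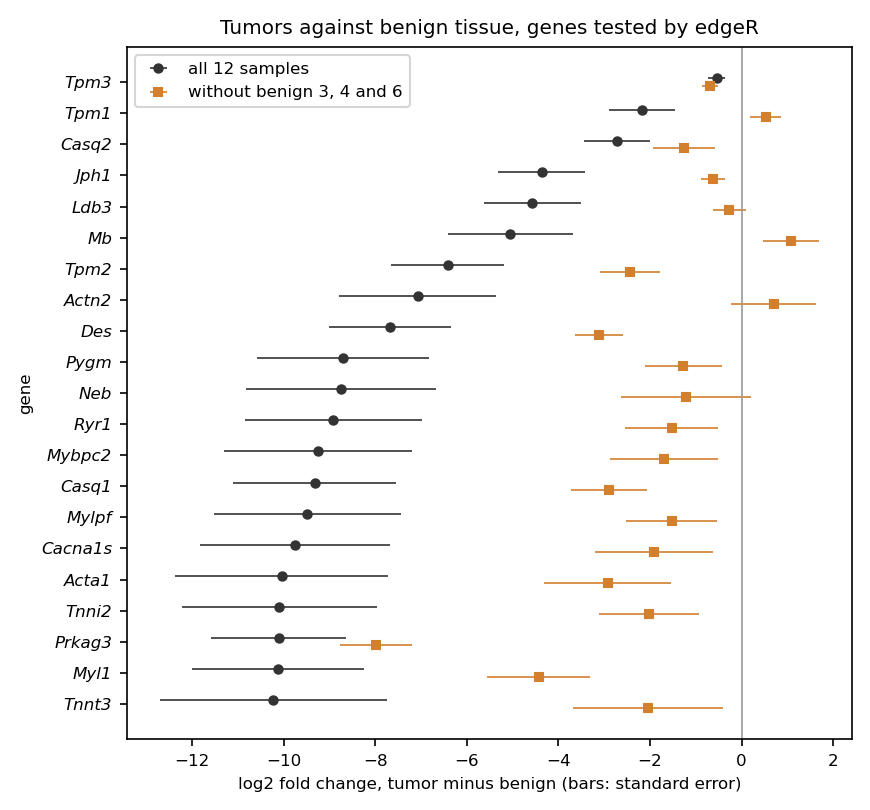
Log2 fold change of tumors against benign tissue, with standard errors as bars, for the 21 members that edgeR could test, from all 12 samples (circles) and without benign 3, 4 and 6 (squares). With all samples every value is below 0, between -10.22 and -0.54, and without the 3 muscle-rich samples the values move toward 0 for every gene except Tpm3, with Tpm1, Actn2 and Mb above it.

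Other genes of skeletal muscle outside the 42 were counted in the same fit. Of 60 such genes, 20 could be tested, 15 were lower in tumors, 4 were higher and 1, Ankrd1, passed in neither direction. Without benign 3, 4 and 6, 7 of 20 were lower and 4 higher, where 28.7% of all genes were lower and 26.7% higher. The median log2 fold change of the 20 was -4.22 with all samples and -0.18 without those 3. Ckm, the muscle creatine kinase, had 1, 1, 40830, 20132, 232 and 48289 counts in benign 1 to 6 and 93 in tumor 5, with at most 10 in each other tumor. Eno3, the muscle enolase, ran from 8.95 to 2427 CPM in benign tissue and from 4.83 to 10.7 CPM in tumors. Fhl1, a LIM protein, was at 75.4 CPM or more in every benign sample and at 8.82 CPM or less in every tumor. The 4 that were higher in tumors were Fbxo32 (1.30), Chrnb1 (1.29), Atp2a2 (0.64) and Dmd (0.61), on the log2 scale. The summed level of the 60 genes was 15837, 10143 and 25919 CPM in benign 3, 4 and 6 and between 605.5 and 949.8 CPM in the other 9 samples. White fat genes, whose 6 members were all called lower in tumors, summed to between 4856 and 10273 CPM in benign tissue and between 179.7 and 263 CPM in tumors. White fat genes were thus high in benign samples with and without much muscle RNA. Of the 7 brown fat genes 5 could be tested, 4 were lower in tumors and 1, Ppargc1a, was higher.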

How the data were processed

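Poly A RNA libraries (NEBNext Ultra II Directional, paired reads) of 6 tumors and 6 benign samples were trimmed with Trim Galore and quantified with Salmon by the authors, whose deposited table holds the estimated counts of each gene, rounded to whole numbers, not scaled for library size. The submitters' processing notes name mm10; the annotation and the versions are not given in the sources used here. Samples were grouped by label, and tumors and benign tissue came from different mice. Whether the 6 samples of a group each came from a mouse of their own is not given in the sources used here, so p-values measure the spread between these samples. Every column matched 1 sample.

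Genes were filtered with filterByExpr by group (minimum count 10, minimum total 15), scaled by TMM and tested two-sided with edgeR 4.0.16 (quasi-likelihood, R 4.3.3), with Benjamini-Hochberg adjustment over 13191 genes and a threshold of 0.1. The filter removed up to 6.35% of a library's counts. CPM are relative to the TMM-scaled library size, for which 3 counts, the floor, are 0.414 CPM on average. Members without a fit were compared by exact permutation of CPM. Exon lengths come from GENCODE vM21, and start windows from RefSeq. The test was checked on simulated counts. The least chi-square per degree of freedom between replicates was 12.5 in benign tissue and 16.4 in tumors, so no library was counted double.

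The 42 genes, the fast, slow and other gene lists and the named genes (all members, the 3 highest other muscle genes, those higher in tumors, and markers; Myh6, Actc1, Ppargc1a, Ankrd1 and the genes of the closing observations were added after their values were seen) were chosen with earlier results of these data known. Alternatives were DESeq2 1.42.0, upper-quartile and total count scaling, and 2 other filters. The replicate number as a block, the stricter threshold of 0.05 and leaving out samples were tried too. Benign 3, 4 and 6 were set apart by their levels of the 42 genes. Leaving them out together with tumor 5 was chosen after seeing the data. The Mybpc3, Nppa and Myl7 heart markers had no row in the count table.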

Additional observations from a re-analysis of the deposited data

Results flagged for a closer look

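A sample was picked out where its gap to the nearest other sample of its group, divided by the range of the group, was above the critical value of Dixon's test, a limit that chance passes in about 1 group of 6 samples in 20. Tumor 5 stood above the other tumors for 26 of the 42 genes, with CPM values for Myh1 (21.0), Myh2 (2.94), Myh4 (34.4), Myl1 (4.99), Mylpf (4.99), Mybpc1 (4.09), Mybpc2 (6.78), Acta1 (32.9) and Tnnt3 (11.8). It did so too for Tnni2 (3.96), Tnnc2 (5.24), Neb (8.44), Actn3 (2.30), Ttn (2.30), Tcap (1.28), Myoz1 (1.02), Myot (0.767) and Des (10.7), and for Xirp2 (4.73), Atp2a1 (23.7), Ryr1 (5.11), Casq1 (2.43), Cacna1s (1.53), Pvalb (2.17), Jph1 (3.32) and Pygm (11.4). The 26 genes are not independent, since all were read from 1 library.

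Benign 3 stood above the other benign samples for 5 slow fiber genes, with 56.1 CPM of Myh7, 22.6 of Myl2, 14.2 of Myl3, 9.76 of Tnni1 and 9.37 of Tnnc1. The remaining 4 rest on 1 to 3 counts: Myl2 was at 0.110 CPM in tumor 6, Myl3 at 0.270 CPM in tumor 4, Tnni1 at 0.361 CPM in tumor 3, and Tnnc1 was low in tumor 6, at 0.329 CPM.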

How the results depend on the processing

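Upper-quartile scaling, total count scaling, the threshold of 0.05, DESeq2, the filter of at least 1 count and each left-out sample kept all 21 tested members called lower. What changed was how many genes could be tested. The number of members called lower was 38 with DESeq2, 42 when genes needed only 1 count in all, 6 when they needed 10 in each sample, and from 21 to 31 when each sample was left out in turn, since the filter then asks for fewer libraries. For fast genes these counts were 15, 15, 0 and 7 to 14, for slow genes 4, 8, 0 and 1 to 2, and for the other muscle genes 51, 53 and 8 under the first 3. The share of all genes called lower was not counted under these settings, so these numbers are not read as a result about the members. Without benign 3, 4 and 6 they were 7 members, 3 fast, 0 slow and 7 other muscle genes, and with tumor 5 also left out 11 of 16 members tested, 4, 0 and 8, with 1 member higher (Mb). Signs then reversed for Tpm1 (0.53, and 0.42 without tumor 5), Actn2 (0.70 and 0.26) and Mb (1.09 and 1.24). The cause was not tested.

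Without Tpm1, Tpm2, Tpm3, Des and Ldb3 the share of all counts was 0.00685%, 0.00791%, 6.25%, 3.59%, 0.0495% and 8.85% in benign 1 to 6 and 0.00167%, 0.00184%, 0.00219%, 0.00412%, 0.0226% and 0.00130% in tumors 1 to 6. Per kilobase of exon, slow shares in benign 3 were 0.250% (Tnni1), 0.348% (Tnnt1), 0.379% (Tnnc1), 1.58% (Casq2), 35.2% (Mybpc1), 0.677% (Myl2) and 0.270% (Myh7), that of Mybpc1 in benign 4 was 20.3%, and in benign 6 they were 0.104% (Tnnt1), 0.471% (Casq2) and 23.1% (Mybpc1).

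With the replicate number as a block, 19 members were called lower, Tpm1 (-1.31) and Mb (-2.66) losing the call. Same-numbered samples come from different mice, and their deviations correlated between -0.12 and 0.11, so the numbers do not pair the samples. At these depths a gene with no count in a tumor may still lie below about 0.414 CPM.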

Other observations

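The myogenic regulators, chosen here after their values were seen, followed the muscle-rich samples. Counts in benign 3, 4 and 6 were 85, 39 and 112 for Myod1, 33, 21 and 47 for Myog, and 147, 96 and 287 for Myf6, a factor of mature fibers. In the other 9 samples none of these genes had more than 1 count. Tumor 5, with 1675 counts of the 37 muscle genes, had 0, 1 and 1.

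Mstn, which encodes myostatin, a secreted brake on muscle growth, did not keep to the order of the sarcomere genes. It was at 24.3, 149.1 and 470.4 CPM in benign 3, 4 and 6, while Myh4 was higher in benign 3 than in benign 4. Benign 3 was thus the lowest of these samples for Mstn and the highest for the slow fiber genes. Each value comes from 1 sample, and no test was made.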
